A study of Homo sapiens with 6 samples.

Results

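The granins, neuropeptide W and the genes that process prohormones were followed in KM12 cells, a human cell line from a colorectal cancer, with CDO1 overexpression or as mock controls. CDO1 is the cysteine dioxygenase that turns cysteine into cysteine sulfinate. The set was named by symbol: the granins CHGA, CHGB, SCG2, SCG3 and VGF, the hormone precursor NPW, and the processing genes PCSK1, PCSK1N and SCG5. Of these 9 symbols, 8 were found among the 27134 genes by Ensembl identifier, and SCG3 was not analysed here. The members were chosen by the difference in normalised counts between CDO1 and mock libraries, above all that of SCG2 and NPW. Values of its members in that comparison are therefore given as a description, with no p-value.

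RNA was sequenced from 3 libraries of CDO1-overexpressing cells and 3 libraries of mock cells, labelled as controls, all at passages 10 to 15. The sources used here do not give how CDO1 was introduced, what the mock cells received or whether either line was 1 clone. The labels do not say that replicates came from separate cultures, so the p-values below cover only the spread of these libraries, perhaps a technical one. Reads assigned to genes totalled 17516640 to 22198173 per library, and all values are counts divided by a size factor per library, called normalised counts here. CDO1 lay at 2333 to 2484 normalised counts in the CDO1 libraries. In the mock libraries it lay at 68.1, 0 and 0 in replicates 1, 2 and 3, so mock replicate 1 stood apart by its 76 CDO1 reads. The same library held 47.5 normalised counts of the endothelial receptor KDR, against 0.975 and 0 in the other mock libraries, and 44.8 of TEK, another endothelial receptor, against 0.975 and 1.13. Colorectal epithelial markers summed to 144635 to 153162 in mock and 194294 to 208111 in CDO1 libraries. Of these 12 genes, 9 were called higher in limma (adjusted p under 0.05), against 11.3% of all tested genes. KRT8 was the largest part of the sums, with means of 86833 in mock and 122710 in CDO1 libraries. KRT19, at 28658 and 27302, did not pass. Of the other marker lists, 4 of 7 leukocyte genes were measured and summed to 17.0 to 23.3 in mock and 7.35 to 14.2 in CDO1 libraries. The 5 endothelial genes summed to 61.1 to 174 and 121 to 135, and 2 of 6 fibroblast genes to 204 to 293 and 130 to 151, of which COL1A1 fell. The part of these differences in the results below was not tested.

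Granins are acidic proteins that aggregate in the trans-Golgi network and are stored with peptide hormones in dense-core granules, the vesicles that neuroendocrine cells release on stimulation. Inside the granule, convertases cut hormone precursors after pairs of basic residues, carboxypeptidase E trims the exposed basic residues, and PAM adds the C-terminal amide. In the gut these proteins are best known from enteroendocrine cells, for which chromogranin A, the product of CHGA, is the usual marker.

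The stretches that lie just upstream of the annotated starts are shown because several members share an element there. Each is read 5′ to 3′ on the gene's strand and ends at the last base before the RefSeq start (GRCh38.p14). Capitals mark the palindrome TGACGTCA, the cAMP response element, and TATAA on either strand.
VGF, chr7:101165570-101165669, minus strand: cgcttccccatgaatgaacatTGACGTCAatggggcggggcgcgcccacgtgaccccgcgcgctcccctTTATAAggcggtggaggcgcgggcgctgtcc
CHGA, chr14:92923050-92923149, plus strand: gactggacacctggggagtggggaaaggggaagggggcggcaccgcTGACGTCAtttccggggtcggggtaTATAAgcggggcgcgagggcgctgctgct
PCSK1, chr5:96433249-96433348, minus strand: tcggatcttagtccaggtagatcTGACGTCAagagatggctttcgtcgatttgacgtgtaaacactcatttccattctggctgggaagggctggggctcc
NPW, chr16:2019685-2019784, plus strand: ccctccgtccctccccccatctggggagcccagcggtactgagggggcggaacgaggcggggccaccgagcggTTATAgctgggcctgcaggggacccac
SCG5, chr15:32641610-32641709, plus strand: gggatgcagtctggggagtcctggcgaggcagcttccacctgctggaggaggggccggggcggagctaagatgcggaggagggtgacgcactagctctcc

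The search covered windows of 300 bases, 250 before and 50 after each RefSeq start, on both strands. Windows were found for 7 of the 9 symbols, and SCG2 and CHGB were not analysed for motifs. TGACGTCA was present for VGF, CHGA and PCSK1, with its first base 79, 54 and 77 bases upstream of the start. Of all 35116 windows, 1.85% hold it. It was not found in these windows of NPW, SCG5, SCG3 or PCSK1N, which says only that the letters are missing there. TATAA was present for VGF, CHGA, NPW and the second annotated start of PCSK1, and in 20.4% of all windows. A match is a description of the sequence and not a measured site. The 3 genes with the palindrome sat far apart in these cells: VGF was abundant, while CHGA and PCSK1 had 5 and 2 reads over all 6 libraries.

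NPW encodes the precursor of neuropeptide W, a ligand of the receptors NPBWR1 and NPBWR2, and it was the member with the largest loss of reads. The gene lies on chromosome 16 from 2009926 to 2020755 (GRCh38, GENCODE release 29, plus strand, ENSG00000183971). The RefSeq start used above lies inside this annotated gene, near its far end. Mock replicates 1, 2 and 3 held 1260.0, 1391 and 1096 normalised counts of NPW, and CDO1 replicates 1, 2 and 3 held 351, 261 and 363. The groups did not overlap, and the lowest mock library stood far above the highest CDO1 library. Means were 1249 ± 148 and 325 ± 55.9 (SD, n = 3), and the log2 fold change, the CDO1 mean minus the mock mean of log2(normalised count + 1), was -1.95 ± 0.10 (SE). Without mock replicate 1 it was -1.94 ± 0.12 (SE). In reads this was 989 over the CDO1 group against 3801 over the mock group, a normalised ratio of 0.261 with a 95% exact binomial interval of 0.243 to 0.280 for counting error only. In bulk RNA, fewer cells that carry a transcript and less of it per cell cannot be told apart.

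The annotated NPW locus begins 103 bases from ZNF598, a ubiquitin ligase gene on the other strand, and holds the scarce pseudogene RN7SL219P. The sources used here do not say if the authors counted by strand. ZNF598 stood at 2647 ± 402 in mock and 2761 ± 80.2 in CDO1 libraries (SD, n = 3), a log2 fold change of 0.07 ± 0.08 (SE). The gene on the other side, SLC9A3R2, differed by -0.14 ± 0.07 (SE) on that scale, and RN7SL219P had means of 2.35 and 1.02 normalised counts. None of these 3 genes passed the threshold in limma (adjusted p = 0.566, 0.213 and 0.443).

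SCG2, secretogranin II, is the precursor of the peptide secretoneurin (chromosome 2, 223596940 to 223602503, minus strand, ENSG00000171951). Its normalised counts were 114, 128 and 139 in mock replicates 1, 2 and 3, and 38.5, 27.4 and 24.8 in CDO1 replicates 1, 2 and 3. Again every CDO1 library lay below every mock library. The log2 fold change of SCG2 was -2.05 ± 0.18 (SE), and -2.13 ± 0.22 (SE) without mock replicate 1. It rests on 123 to 131 reads in each mock library and 25 to 39 in each CDO1 library. Its rank was 46th from the lowest of 21775 tested genes and that of NPW 81st. No other measured gene overlaps SCG2. The nearest protein-coding neighbour above it, AP1S3, a clathrin adaptor subunit, lay 149183 bases away and fell by 0.93 on the log2 scale (limma adjusted p = 5.83e-10).

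**Figure D1:**
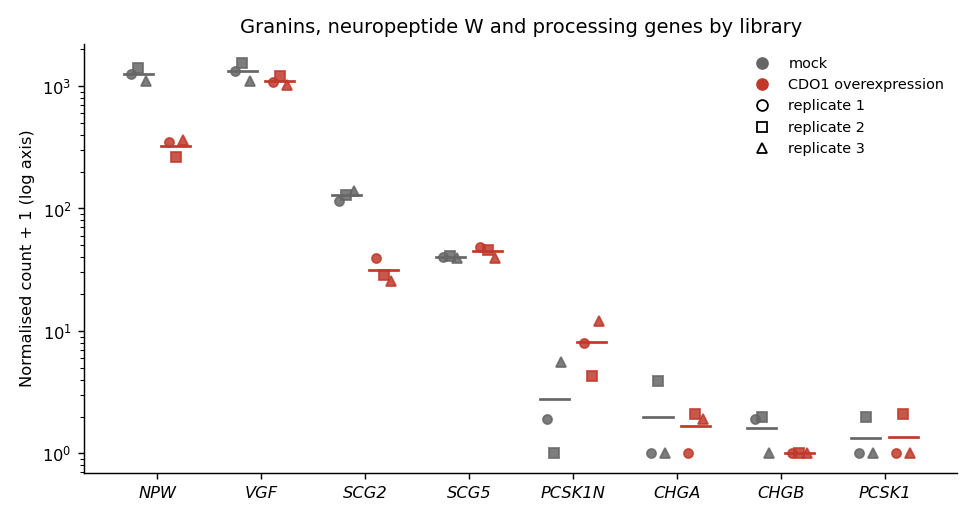
The 8 measured members, each as normalised count plus 1 on a log axis; grey points are mock libraries, red points are CDO1 libraries, the marker shape gives the replicate and a short line gives the mean of the group. NPW and SCG2 separate by group, VGF and SCG5 overlap, and PCSK1N, CHGA, CHGB and PCSK1 lie near the bottom of the scale.

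VGF, a granin-like precursor induced by nerve growth factor in neurons (chromosome 7, 101162509 to 101165593, minus strand, ENSG00000128564), differed far less. It stood at 1335, 1525 and 1091 normalised counts in mock replicates 1, 2 and 3 and at 1069, 1194 and 1015 in CDO1 replicates 1, 2 and 3. Mock replicate 3 lay below CDO1 replicate 2, so the groups overlapped. Means were 1317 ± 218 and 1093 ± 92.1 (SD, n = 3), with a log2 fold change of -0.26 ± 0.09 (SE). The transcript of VGF has a GC content of 70.6%, and the library with the most VGF, mock replicate 2, was also the one richest in GC-rich transcripts, with a Spearman's rho of 0.528 across 10926 genes between GC content and the deviation from the mean. After each library's trend with GC content was removed, the log2 fold change of VGF was 0.0085 ± 0.052 (SE), on the other side of 0 and not past the threshold. The call of VGF in the fit over all genes thus depended on this step, and it was also lost without mock replicate 1 (-0.24), mock replicate 2 (-0.15), CDO1 replicate 1 (-0.24) or CDO1 replicate 3 (-0.21). The neighbour of VGF at 913 bases, AP1S1, rose by 0.31 ± 0.05 (SE) on the log2 scale (limma adjusted p = 0.000136). For NPW, whose transcript has a GC content of 74.7%, the GC step moved the log2 fold change from -1.95 to -1.61 ± 0.09 (SE), and for SCG2, at 43.0%, to -2.09 ± 0.18 (SE).

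**Figure D2:**
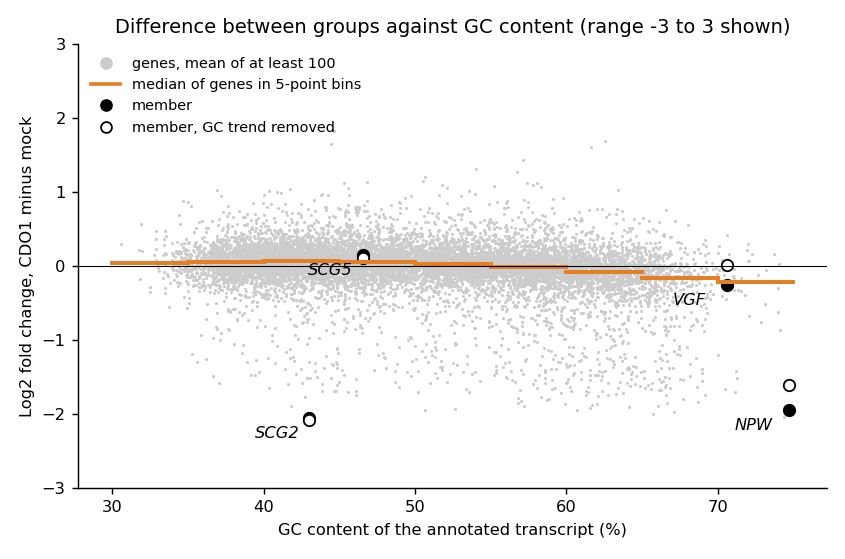
The vertical axis is the log2 fold change, CDO1 over mock, and the horizontal axis the GC content of the annotated transcript, for genes that averaged 100 normalised counts or more (grey), with the median of genes in bins of 5 percentage points (orange) and 4 members before (black) and after (open) removal of each library's GC trend. VGF moves from -0.26 to 0.0085, NPW from -1.95 to -1.61 and SCG2 from -2.05 to -2.09.

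SCG5, the chaperone of the convertase PCSK2 (chromosome 15, 32641676 to 32697098, plus strand, ENSG00000166922), differed little between the groups. Mock replicates 1, 2 and 3 held 39.4, 39.99 and 38.5 normalised counts and CDO1 replicates 1, 2 and 3 held 47.3, 44.9 and 38.6. The groups overlapped, with CDO1 replicate 3 inside the mock range, and the log2 fold change was 0.14 ± 0.19 (SE). In reads, 131 against 119, the normalised ratio was 1.104 with a 95% exact binomial interval of 0.855 to 1.43. That interval covers counting error only. A change of the size seen for SCG2 lies far outside it, while one inside it was not detectable at this depth. An antisense gene, AC123768.1, overlaps SCG5 and had means of 1.68 and 1.02 normalised counts.

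The remaining members were scarce. PCSK1N, which encodes proSAAS, an inhibitor of PCSK1 (chromosome X, 48831094 to 48835633, minus strand, ENSG00000102109), had reads of 1, 0 and 4 in mock replicates 1, 2 and 3, against 7, 3 and 12 in CDO1 replicates 1, 2 and 3. The groups overlapped, since mock replicate 3 at 4.53 normalised counts exceeded CDO1 replicate 2 at 3.28. The ratio of its 22 to 5 reads was 4.41 with an interval of 1.63 to 14.9. Its log2 fold change of 1.76 ± 0.63 (SE) was past the threshold as fitted and not past it without CDO1 replicate 1 (1.71), CDO1 replicate 3 (1.41), mock replicate 1 (1.66) or mock replicate 2 (1.20). CHGA (chromosome 14, 92923080 to 92935293) had 2 reads over the CDO1 group and 3 over the mock group, and CHGB (chromosome 20, 5911430 to 5925361) had 0 and 2. PCSK1, the granule convertase (chromosome 5, 96390415 to 96434143), had 1 and 1. No group of these 3 genes exceeded 3 reads, the limit that a count of 0 allows, so no fold is given and no difference was detectable at this depth.

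Of the 8 measured members, 5 passed the minimum mean of 1 normalised count and were tested. As a description only, limma's fit over all genes placed 3 of them, NPW, SCG2 and VGF, among the genes called lower and 1, PCSK1N, among those called higher (adjusted p under 0.05). Among all 21775 tested genes 24.0% were called, 12.7% lower and 11.3% higher. The 3 CDO1 libraries were all below the 3 mock libraries in 2 of the 5, NPW and SCG2, and in 18.9% of all tested genes, while 37.1% of all had groups that did not overlap in either direction. Since the members were chosen with this contrast known, nothing is read from these shares. The median log2 fold change over the 5 tested members was -0.26, against -0.0035 over all tested genes. The values within the set ran from -2.05 for SCG2 to 1.76 for PCSK1N, the latter from 22 against 5 reads in groups that overlapped.

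**Figure D3:**
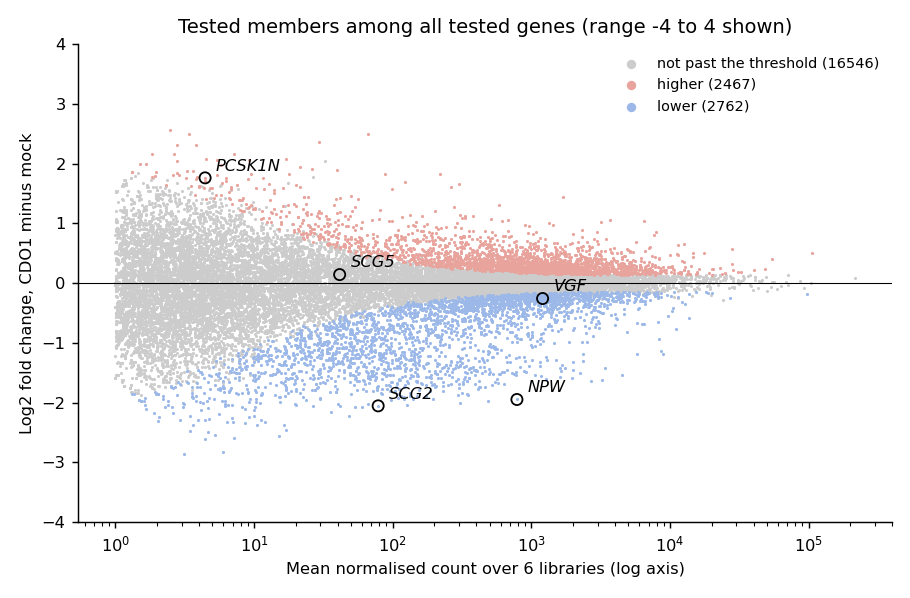
Each tested gene by its mean normalised count (log axis) and its log2 fold change, positive where CDO1 libraries were higher, with genes called higher in red, genes called lower in blue, and circles at the 5 tested members. SCG2 at -2.05 and NPW at -1.95 lie at the lower edge of the cloud, VGF and SCG5 lie in its middle, and PCSK1N is among the scarce genes at the left.

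Between genes, levels were compared per kilobase of the annotated principal transcript. In mock libraries NPW stood at 2508 ± 296 normalised counts per kilobase (SD, n = 3), VGF at 511 ± 84.6, SCG2 at 49.3 ± 4.93 and SCG5 at 31.7 ± 0.623. Each neighbouring pair in this order was apart in every mock library, and NPW sat at the 97.6th percentile of tested genes. In CDO1 libraries NPW stood at 652 ± 112, VGF at 424 ± 35.8, SCG5 at 35.2 ± 3.65 and SCG2 at 11.7 ± 2.82 (SD, n = 3). SCG2 and SCG5 had thus changed places, with SCG2 falling from the 51.6th to the 36.8th percentile and SCG5 staying at the 46.5th and 48.8th. The level of NPW depends on the transcript used: with its longest transcript of 991 bases in place of 498, it was 1260.3 per kilobase in mock and 328 in CDO1 libraries, which places it below VGF in the latter.

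The genes whose pattern over the 6 libraries was most like that of SCG2, by Pearson's r of the log2 values among 10941 genes with a mean of at least 100, were ZFYVE28, AKR1B1, CHST11, ITPRIPL1 and CHD5, with r from 0.995 to 0.997. For NPW they were NES, SMARCD2, SELENOW, ARC and FBXO6, with r from 0.996 to 0.998. NES encodes the intermediate filament nestin and fell from 442 ± 43.8 to 168 ± 14.8 (SD, n = 3). ARC, an immediate early gene of neurons, fell from 229 ± 36.1 to 71.6 ± 7.13. SMARCD2, a chromatin remodelling subunit, had a log2 fold change of only -0.32, so likeness in pattern is not likeness in size. These coefficients rest on 2 groups of 3 libraries, and 5.24% of genes reached 0.95 with SCG2 and 6.61% with NPW. SCG2 and NPW themselves had an r of 0.966.

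Other genes of the same pathway were taken from lists drawn up from general knowledge, with earlier results of these data known. In the list for prohormone cleavage and peptide end processing, 5 of 25 tested genes fell (20%), 6 rose (24%) and 14 did not pass in limma, against 12.7% and 11.3% of all tested genes, with a median log2 fold change of -0.01. PAM, the amidating enzyme, fell from 3202, 3020.5 and 3293 in mock replicates 1, 2 and 3 to 1791, 1714 and 1833 in CDO1 replicates 1, 2 and 3, a log2 fold change of -0.83 ± 0.05 (SE, limma adjusted p = 4.91e-10). CPE, carboxypeptidase E, fell from 685, 655 and 675 to 340.2, 298 and 334, a log2 fold change of -1.05 ± 0.08 (SE, limma adjusted p = 1.97e-09). For both enzymes all mock libraries lay well above all CDO1 libraries. PCSK5, another convertase, fell 1.30-fold.

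Of the convertases that act in the constitutive secretory route, 3 rose. FURIN rose from 3960.5 ± 380 to 5402 ± 397 (SD, n = 3), 1.36-fold, PCSK6 1.38-fold and PCSK7 1.26-fold. DPP4, a surface peptidase of enterocytes that cuts incretin hormones, rose 1.95-fold, from 87.8 ± 12.4 to 171 ± 11.8 (SD, n = 3). QPCT, which forms N-terminal pyroglutamate, rose 1.25-fold. All 11 called genes of this list were also called in the same direction by edgeR, with the GC trend removed and without mock replicate 1. PCSK2 was not analysed here.

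Among genes for dense-core granule biogenesis, filling and release, 17 of 42 tested genes fell (40.5%), 7 rose (16.7%) and 18 did not pass in limma, where 12.7% of all tested genes fell and 11.3% rose. The median log2 fold change was -0.15. DOC2B, a calcium sensor of exocytosis, stood at 358, 376 and 335 in mock replicates 1, 2 and 3 and at 88.7, 105 and 110.2 in CDO1 replicates 1, 2 and 3, a log2 fold change of -1.81 ± 0.11 (SE, limma adjusted p = 1.60e-10). UNC13A, which primes vesicles for fusion, fell from 680.2 ± 54.3 to 303 ± 9.42 (SD, n = 3). CADPS and CADPS2, priming factors of dense-core granules, fell 1.63-fold and 2.41-fold. BAIAP3, a relative of the UNC13 proteins that is linked to dense-core granules, fell 1.81-fold.

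Of the RAB3 small GTPases, RAB3A and RAB3D fell 1.48-fold and 1.47-fold. The more abundant RAB3B stood at 1666 ± 13.7 in mock and 1623 ± 60.7 in CDO1 libraries (SD, n = 3) and did not pass (limma adjusted p = 0.679). SNAP25, the neuronal SNARE, fell from 10.4 ± 1.997 to 1.99 ± 1.70 normalised counts (SD, n = 3), while its widespread relative SNAP23 rose 1.22-fold. Families were split: UNC13D, which serves granule release in leukocytes, rose 1.49-fold and UNC13B 1.27-fold while UNC13A fell, and RAB27B rose 1.53-fold. Of the 17 falls, edgeR called 15 and did not test the scarce SNAP25 and SYN1. With the GC trend removed 15 were called, and without mock replicate 1, 13. In all 17 the CDO1 libraries lay below the mock libraries, against 18.9% of all tested genes. These 17 were picked by their calls in the same libraries, so this separation adds no support to them. Of 7 neuron and glia markers, 5 were measured, summing to 257 to 271 in mock and 275 to 333 in CDO1 libraries, of which MAP2 rose.

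Of other peptide hormone and neuropeptide precursors, 7 of 36 tested genes fell (19.4%), 2 rose (5.56%) and 27 did not pass in limma, against 12.7% and 11.3% of all tested genes, with a median log2 fold change of -0.19. ADM, the vasodilator adrenomedullin, fell from 553 ± 16.1 to 386 ± 27.6 (SD, n = 3), and its relative ADM2 1.72-fold. NMB, neuromedin B, fell from 67.2 ± 21.9 to 29.9 ± 7.84 and PTH2, a ligand of a parathyroid hormone receptor, from 37.0 ± 4.29 to 14.05 ± 3.86. CALCA, the precursor of calcitonin and its related peptide, rose from 19.3 ± 1.24 to 38.2 ± 2.94, and the relaxin RLN2 from 9.53 ± 1.07 to 25.7 ± 8.51. GNAS, on this list for the granin-like product of its locus though it mainly encodes a G-protein subunit, fell 1.14-fold. The abundant precursors GAL, galanin, at 1900.3 ± 99.1 against 1976 ± 46.7, and NMU, neuromedin U, at 873 ± 32.5 against 831 ± 49.2 (mock against CDO1, SD, n = 3), did not pass (limma adjusted p = 0.521 and 0.491).

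**Figure D4:**
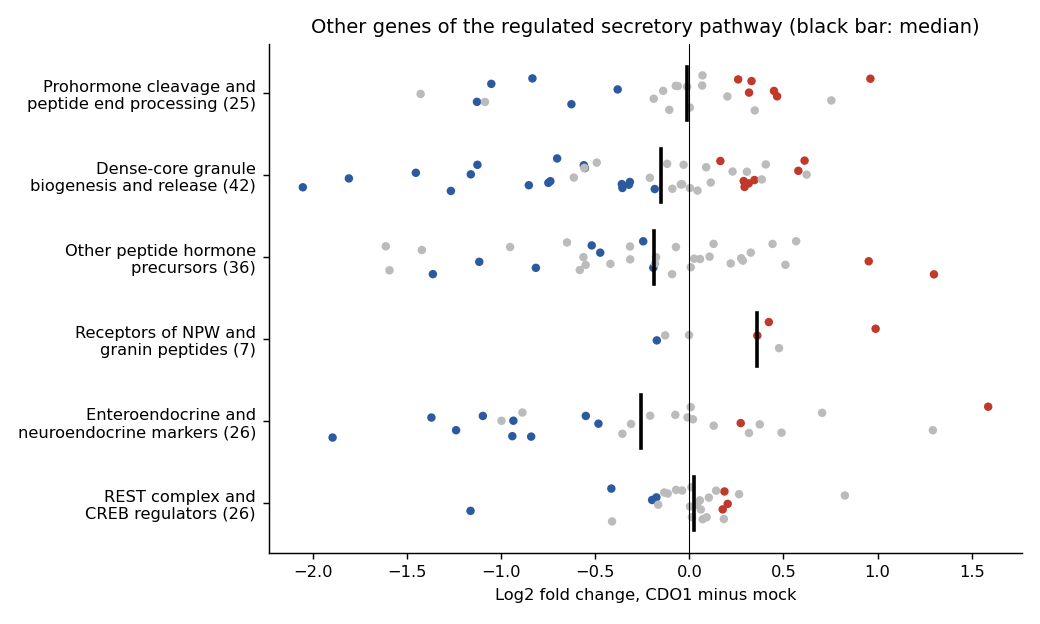
Each point is a tested gene of 1 of 6 lists (number tested in parentheses) at its log2 fold change, CDO1 over mock, coloured blue where it fell and red where it rose in limma and grey otherwise, with a black bar at the list's median. The bar lies at -0.15 for dense-core granule genes, at -0.26 for neuroendocrine markers and at -0.01 for cleavage and end processing.

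In the list for receptors linked to these peptides, 3 of 7 tested genes rose (42.9%) and 1 fell (14.3%) in limma. The shares of all tested genes were 11.3% and 12.7%. The list also holds proteins with other ligands or roles, so its shares are not those of receptors for these peptides alone. NPBWR2, a receptor for neuropeptide W, had 1 read in each of mock replicates 2 and 3 and 0 in the other libraries, and NPBWR1 was not analysed here. C3AR1, also on the list, was scarce, with means of 0.949 normalised counts in mock and 1.09 in CDO1 libraries. GPR83, a receptor reported for a proSAAS peptide, rose from 10.1 ± 2.10 to 20.9 ± 2.65 (SD, n = 3). The other risers were NRP1, a co-receptor of semaphorins and VEGF, 1.28-fold, and GPR37, an orphan receptor of the nervous system, 1.33-fold, and HSPA5, a chaperone of the endoplasmic reticulum, fell 1.13-fold. The fall of HSPA5 was lost without mock replicate 1.

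Among enteroendocrine and neuroendocrine markers 9 of 26 tested genes fell (34.6%), 2 rose (7.69%) and 15 did not pass in limma, against 12.7% and 11.3% of all tested genes, with a median log2 fold change of -0.26. L1CAM, a neural adhesion molecule, fell from 324, 396 and 333 in mock replicates 1, 2 and 3 to 108, 149.99 and 149.7 in CDO1 replicates 1, 2 and 3, a log2 fold change of -1.37 ± 0.12 (SE, limma adjusted p = 4.78e-08). HES6, a HES-family factor of neurogenesis, fell 1.93-fold, the zinc finger factor MYT1 1.93-fold, and SRRM3, a splicing factor of neural microexons, 2.16-fold. ENO2, the neuronal enolase, fell 1.46-fold and the endocrine factor PAX6 1.74-fold. Of the somatostatin receptors, SSTR5 fell from 218 ± 25.5 to 155 ± 13.1 and the scarce SSTR2 from 4.03 ± 1.89 to 0.365 ± 0.632 (SD, n = 3). SSTR5 did not pass with the GC trend removed (log2 fold change -0.27, limma adjusted p = 0.0528), and SSTR2 was too scarce for the edgeR fit.

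The 2 genes that rose were DDC, the decarboxylase that makes serotonin and dopamine, from 7.53 ± 1.24 to 24.8 ± 4.74 (SD, n = 3), and ASCL2, 1.20-fold, which is known as a factor of intestinal stem cells rather than of endocrine cells. The granule membrane protein SYP, in the granule list, stood at 27.9 ± 2.34 in mock and 19.7 ± 2.76 in CDO1 libraries and did not pass (limma adjusted p = 0.178). Of the 9 falls, 8 were called with the GC trend removed, 8 by edgeR and 7 without mock replicate 1.

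Granin genes are known targets of the silencer REST and, through the element shown above, of CREB. In this list of regulators 4 of 26 tested genes fell (15.4%), 3 rose (11.5%) and 19 did not pass in limma, close to the 12.7% and 11.3% of all tested genes, with a median log2 fold change of 0.03. REST itself stood at 1176 ± 48.99 in mock and 1181 ± 89.9 in CDO1 libraries (SD, n = 3), a log2 fold change of 0.0039 ± 0.065 (SE). CREB1 had a log2 fold change of 0.10 ± 0.06 (SE, limma adjusted p = 0.266). The REST corepressor RCOR2 fell from 214 ± 24.5 to 95.6 ± 14.3, 2.24-fold, while its relative RCOR1 had a log2 fold change of 0.04 ± 0.07 (SE). CRTC1, a CREB coactivator, fell 1.34-fold and EHMT2, a histone methyltransferase, 1.13-fold. The groups of EHMT2 overlapped, and with the GC trend removed it did not pass (log2 fold change -0.08, limma adjusted p = 0.165). KDM1A, the demethylase of the REST complex, rose 1.14-fold. CREB3L2 and CREB3, relatives of CREB linked to the endoplasmic reticulum, rose by 0.20 and 0.18 on the log2 scale. Without mock replicate 1, 2 of the 4 falls and 2 of the 3 rises were called. The list held 2 falls and 0 rises without CDO1 replicate 3, and 1 rise without CDO1 replicate 1.

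Across the processing settings, given as a description since these genes were chosen by this difference, the log2 fold change lay between -2.24 and -1.92 for SCG2 and between -2.04 and -1.61 for NPW, the authors' moderated values left aside. The log2 fold changes of the authors' deposited table were -1.55 for SCG2, -1.81 for NPW, -0.26 for VGF, 0.10 for SCG5 and 0.28 for PCSK1N. For CDO1 itself that table gave 0.09, where mean normalised counts were 2384 in CDO1 and 22.7 in mock libraries. Its values can therefore not be read as sizes comparable with those of the other fits.

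**Figure D5:**
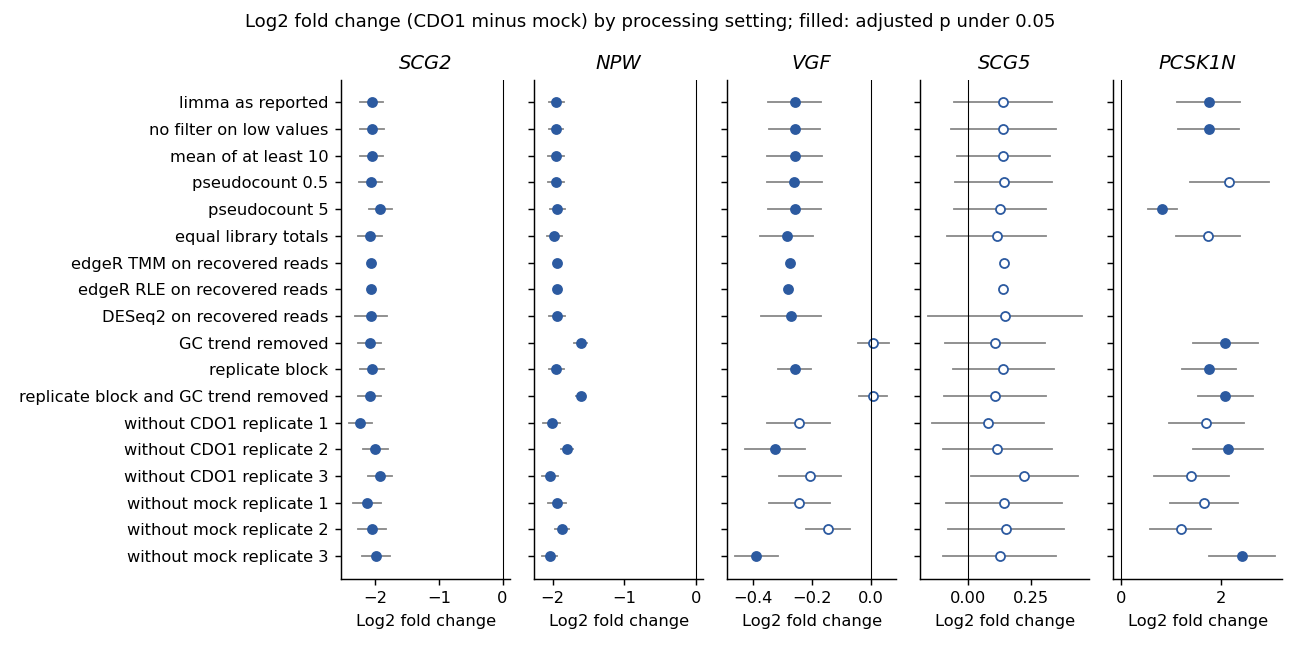
The 5 tested members under each processing setting, by log2 fold change, CDO1 over mock, with a bar for the SE where the tool gives one, filled points past an adjusted p of 0.05 and a separate scale for each gene. The authors' values are not drawn. SCG2 stays between -2.24 and -1.92 and NPW between -2.04 and -1.61. VGF loses its call with the GC trend removed and in 4 of the 6 fits that leave out a library, and SCG5 is open throughout.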

How the data were processed

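The submitters' processing notes name GRCh38, DESeq2 1.10.1 and STAR 2.5.1b as the authors' build and tools; the sources used here do not name the read counter, its strand setting or the annotation release. The deposited signal columns are gene counts divided by a size factor per library (0.884 to 1.12). Whole reads were recovered from the step of 1 read, for 100% of values to within 0.001 read. The log2 fold change and p-value columns are the authors' comparison, per the file headers.

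Values were taken as log2(normalised count + 1) and genes with a mean under 1 were dropped. The main test was limma 3.58.1 with a mean-variance trend, between the 2 groups, and p-values were adjusted over 21775 genes (Benjamini-Hochberg, threshold 0.05). On recovered reads, edgeR 4.0.16 called 2795 lower and 2628 higher of 15184 genes. DESeq2 1.42.0 was run on them too (R 4.3.3). Fold values are ratios of mean normalised counts. GENCODE release 29 gave coordinates, transcript length and GC content, and RefSeq the promoter windows. GC trends were removed by lowess (span 0.3).

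The members and lists were chosen with earlier results of these data known. Named genes are all members, CDO1, the 6 called genes with the smallest p of each list, the 5 genes most like SCG2 and NPW in pattern, and further list genes with their values. Some genes that this rule names are not reported here. Neighbouring genes and the motifs were added after the data had been seen. Intervals cover counting error only, since the reads of each group's libraries were pooled and the spread between libraries was left out. PCR reads that carry no molecular identifier need not be separate molecules, so even the counting error may be understated.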

Additional observations from a re-analysis of the deposited data

How the results depend on the processing

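Of 86 alternative fits of the members' log2 fold changes, 73 kept the direction and the side of the threshold. VGF turned to 0.0085 with the GC trend removed, alone or with the replicate block. PCSK1N lost its call with a pseudocount of 0.5 (2.17), with equal library totals (1.75) and in the authors' table (0.28), and it was 0.83 with a pseudocount of 5. No member was therefore called higher (0) with a mean of at least 10, a pseudocount of 0.5, either edgeR fit, DESeq2, equal totals or the authors' table. The edgeR fits and the stricter mean did not test PCSK1N, and DESeq2 gave it a log2 fold change of 2.05 without an adjusted p. The cause elsewhere was not tested. With each library left out in turn, VGF lay between -0.39 and -0.15, PCSK1N between 1.20 and 2.43, the members called higher between 0 and 1, HSPA5 as the fallen receptor-list gene between 0 and 1, and the falls and rises of the REST and CREB list between 2 and 5 and between 0 and 3. When calls also had to reach 1 in size on the log2 scale, 1159 genes were called in all, with falls and rises of 2 and 0 in the processing list, 6 and 0 in the granule list, 2 and 1 in the precursor list, 0 and 0 in the receptor list, 4 and 1 in the marker list and 1 and 0 in the REST and CREB list. Other counts moved by at most 1.5 times.

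The replicate numbers are not known to pair libraries: deviations of same-numbered libraries correlated at 0.015, 0.085 and -0.0025. With the replicate block 5918 genes were called, against 5229, and the same 3 members were lower and 1 higher. Depth limits CHGA, CHGB, PCSK1 and PCSK1N.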
